A study of Mus musculus with 50 samples.

Results

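The piRNA pathway and germ granule genes were followed in testis and spinal cord of wobbler mice on 2-colour arrays. The set was fixed by gene symbol: Tdrd1, Tdrd5, Tdrd6, Tdrd7, Piwil1, Piwil2, Mael and Ddx4. A probe counted as a member when the array's annotation named it for 1 of these 8 genes and for no other gene. This found 8 probes for 6 genes, out of 9930 genes with a probe named for 1 gene only. There were 2 probes each for Tdrd5 and Piwil1 and 1 each for Tdrd1, Piwil2, Mael and Ddx4. Tdrd6 and Tdrd7 had no probe named for them alone and were not analysed.

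Male germ cells make piRNAs, short RNAs that guide PIWI proteins to transposon transcripts and other targets. PIWI proteins carry methylated arginines, which Tudor domain proteins bind, and the complexes gather in germ granules, the intermitochondrial cement of spermatocytes and the chromatoid body of round spermatids. Loss of single members of this pathway in male mice releases transposons or stops spermatogenesis.

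The wobbler allele (wr) is a recessive mutation of Vps54, which encodes a vesicle tethering subunit, and wr/wr mice lose motor neurons and the sperm of the males lack a normal acrosome. Testis RNA of 10 individual wr/wr mice was hybridised on 40 arrays, 4 per mouse, against 1 pool of wild-type (wt) testis RNA. Spinal cord RNA was taken as pool1 and pool2, of 4 wr/wr mice each, and from mouse 5995 alone, and was hybridised on 10 arrays against 1 wt cord pool. All cord mice were also testis mice. The sample labels give 10 wt mice per pool and the labelling protocol gives 6. The ages of the mice are not given in the labels. Each value is a log2 ratio, centred on the median of its array, and for each RNA the mean of its arrays with mutant cDNA in Cy5 was averaged with that of its Cy3 arrays. That the ratio runs as wr/wr over wt is likely, but the labels do not say so. Read the other way, each sign given here turns. Because the files hold ratios and no levels, the tissues could not be checked against their markers, and no level of a member in wt or wr/wr testis can be given. In these bulk testes, fewer cells of a type and less RNA per cell cannot be told apart.

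A testis array gave values for 19070 to 20189 probes. Of the 320 member values in testis, 2 were missing. In mice 5905, 5997 and 6065 the ratios from the Cy5 and the Cy3 arrays ran against each other over all probes (Spearman rho -0.223, -0.113 and -0.311). In the other 7 mice rho lay between 0.0627 and 0.366. Without these 3 mice, 3 of the 8 member probes were again called, beside 2640 of 20298 probes in all, with Tdrd1 at 0.35, Tdrd5 probe 11991 at 0.43 and Mael at 0.34.

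The promoters of the 3 genes with a probe called higher and of Piwil1, with no probe past the test, are shown so that their sequence can be set beside the values. RefSeq promoters of GRCm38.p6 matched 6 of the 8 genes by symbol, and Piwil2 and Tdrd6 had no entry. The 250 bases before the annotated start are given, 5′ to 3′ on the strand of the gene, with matches to CAACNG or TAACNG in capitals. These are forms of the MYB site, searched on both strands because A-MYB is known to drive piRNA pathway genes at the pachytene stage of meiosis.
Tdrd1: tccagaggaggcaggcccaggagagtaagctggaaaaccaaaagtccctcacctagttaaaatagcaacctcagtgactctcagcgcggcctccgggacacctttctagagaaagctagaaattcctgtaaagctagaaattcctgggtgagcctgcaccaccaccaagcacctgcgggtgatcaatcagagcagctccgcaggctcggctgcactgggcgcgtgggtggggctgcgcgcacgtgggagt
Tdrd5: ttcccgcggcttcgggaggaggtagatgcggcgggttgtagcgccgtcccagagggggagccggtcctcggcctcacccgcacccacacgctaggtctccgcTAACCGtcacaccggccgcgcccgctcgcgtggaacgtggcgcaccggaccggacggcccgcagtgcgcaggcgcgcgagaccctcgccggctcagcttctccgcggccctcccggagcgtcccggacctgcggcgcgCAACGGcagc
Mael: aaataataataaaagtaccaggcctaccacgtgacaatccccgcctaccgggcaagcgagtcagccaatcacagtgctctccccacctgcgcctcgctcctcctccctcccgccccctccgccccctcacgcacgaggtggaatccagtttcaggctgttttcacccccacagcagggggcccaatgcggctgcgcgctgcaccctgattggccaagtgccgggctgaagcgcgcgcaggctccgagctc
Piwil1: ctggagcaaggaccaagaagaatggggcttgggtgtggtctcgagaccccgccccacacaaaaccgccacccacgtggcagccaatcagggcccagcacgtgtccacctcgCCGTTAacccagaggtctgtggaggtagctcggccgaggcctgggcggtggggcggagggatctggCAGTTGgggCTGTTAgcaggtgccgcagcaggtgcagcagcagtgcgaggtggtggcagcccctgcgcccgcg
The Tdrd1 window, before the first of its 3 listed starts, lies at chr19:56825959-56826208 on the plus strand. The Tdrd5 window lies at chr1:156303349-156303598 and the Mael window at chr1:166238745-166238994, both on the minus strand, and that of Piwil1 at chr5:128735996-128736245 on the plus strand. Tdrd5 held 2 matches, at 148 and 10 bases before the start, and Piwil1 held 3, at 139, 73 and 64 bases before it. The windows of Tdrd1, Mael and Ddx4 held none. Over all 32851 windows of the table, 43.1% held a match to either form, beside 3 of the 6 member windows, the last being that of Tdrd7. The cAMP response element TGACGTCA was in none of the 6 windows and in 1.55% of all.

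In the testis, 3 of the 8 member probes were higher in the mutants and 0 were lower (limma, adjusted p under 0.05). Over all 20218 probes tested, 7.28% were called higher, 5.06% lower and 12.3% in either direction. The calls were Tdrd1, 1 of the 2 Tdrd5 probes and Mael. The median over the 8 member probes was 0.15 on the log2 scale, beside -0.01 over all probes. The members were chosen with earlier results in view, so these counts describe them and do not set them apart from other genes. Without mouse 6069 or without mouse 6493, only Tdrd1 of the members was called, while over all probes the calls fell from 2494 to 998 and 752. Tdrd1 was then itself just under the threshold (adjusted p = 0.0437 and 0.04955). The means hardly moved: Tdrd5 probe 11991 was then at 0.44 and 0.49 (adjusted p = 0.0595 and 0.0578) and Mael at 0.25 and 0.24 (adjusted p = 0.0526 and 0.0561). Without mouse 5905 there were 4 calls, the added 1 being the other Tdrd5 probe, 10574, called lower at -0.21 (adjusted p = 0.0374).

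**Figure D1:**
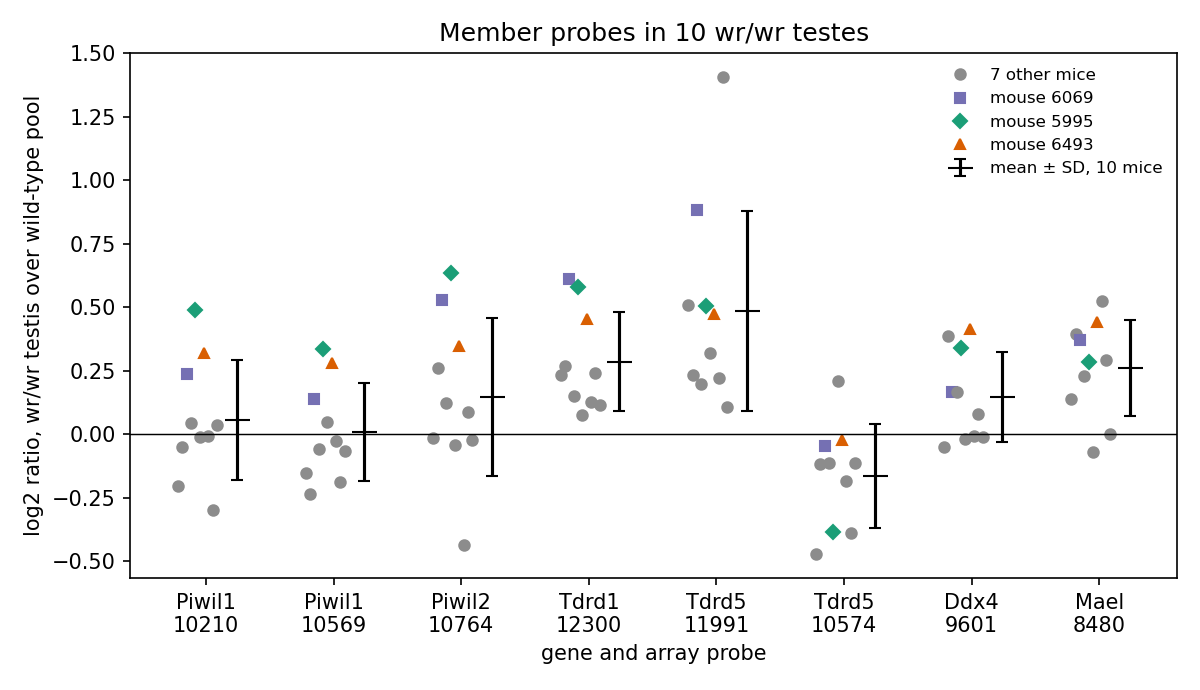
Log2 ratios of wr/wr testis over the wild-type pool (y axis) for each member probe (x axis), with 1 point per mouse and the mean ± SD over 10 mice in black. Tdrd1 and Tdrd5 probe 11991 lie above 0 in 10 of 10 mice, and mice 6069, 5995 and 6493, marked after their values were seen, are high on most probes.

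Among the PIWI proteins, which bind piRNAs and cut or silence their targets, no probe passed the test. Piwil1 (MIWI) binds the pachytene piRNAs of spermatocytes and round spermatids. Its probe 10210 ranged from -0.30 in mouse 6065 to 0.49 in mouse 5995, with a median of 0.01. The mean was 0.05 ± 0.24 (SD, n = 10), with a 95% interval of -0.10 to 0.21 and an adjusted p of 0.634. The other Piwil1 probe, 10569, ranged from -0.24 in mouse 5907 to 0.33 in mouse 5995 and averaged 0.01 ± 0.19 (n = 10, interval -0.12 to 0.14, adjusted p = 0.944). On both probes the mice lay on both sides of 0, with 5 and 4 of 10 above it. The probes ordered the mice alike, at r = 0.917 over the 10 mice, a description of values that share their arrays.

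Piwil2 (MILI) takes part in the cycle that amplifies piRNAs and is made earlier in germ cell development than Piwil1. It ranged from -0.44 in mouse 6163 to 0.63 in mouse 5995, with a median of 0.10. The mean was 0.15 ± 0.31 (n = 10, adjusted p = 0.309), and 6 of 10 mice were above 0. The low value of mouse 6163 came from 1 of its 4 arrays, at -2.03, while the other arrays read 0.11, 0.07 and 0.10. With that array left out, the mean was 0.20 with an adjusted p of 0.0881, so the gene still did not pass.

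Among the Tudor proteins, Tdrd1 gave the member probe with the smallest adjusted p. Its product binds MILI in the intermitochondrial cement. It ranged from 0.08 in mouse 5905 to 0.61 in mouse 6069, with a median of 0.24, and all 10 mice lay above 0. Mice 6069, 5995 and 6493, at 0.61, 0.58 and 0.45, stood above the remaining mice, which lay at 0.27 or less. The mean was 0.28 ± 0.19 (n = 10), a 1.22-fold ratio with a 95% interval of 0.15 to 0.42 on the log2 scale and an adjusted p of 0.019 in limma. Single arrays read above 0 on 32 of 40.

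Tdrd5, whose product is needed for chromatoid body assembly and pachytene piRNA production, was measured by 2 probes that did not agree. Probe 11991 ranged from 0.11 in mouse 5997 to 1.41 in mouse 6065, with a median of 0.40 and all 10 mice above 0. Its mean was 0.48 ± 0.39 (n = 10), a 1.40-fold ratio with an adjusted p of 0.0257. Mouse 6065, at 1.41, and mouse 6069, at 0.88, stood above the rest, which lay at 0.51 or less. The value of mouse 6065 rests on 1 Cy5 array at 3.08, beside 0.37 on the other Cy5 array, 1.09 on 1 Cy3 array and a missing value. Without that array the mouse was at 0.73, below mouse 6069, and the mean was 0.42 with an adjusted p of 0.015. Probe 10574 ranged from -0.47 in mouse 5906 to 0.21 in mouse 5905 and averaged -0.17 ± 0.20 (n = 10, adjusted p = 0.102), with 1 of 10 mice above 0. Probe 11991 read higher than probe 10574 in 10 of 10 mice, by 0.65 ± 0.51, and over mice the probes correlated at r = -0.381. The annotation gives both probes the same transcript record, and the array files used here hold no probe sequences. With the probes averaged, Tdrd5 was at 0.16 ± 0.18 (n = 10, adjusted p = 0.0824), so the call for the gene rests on probe 11991.

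Ddx4 encodes the mouse Vasa homologue, an RNA helicase that marks germ cells and sits in the chromatoid body. It ranged from -0.05 in mouse 5906 to 0.41 in mouse 6493, with a median of 0.12. The mean was 0.15 ± 0.18 (n = 10, adjusted p = 0.104). Mice 6493, 5907 and 5995, at 0.41, 0.39 and 0.34, were high, and 4 mice lay between -0.05 and 0. In a model over single arrays with the mouse as a random block, the same mean of 0.15 had an adjusted p of 0.00812. That model took the arrays of 1 mouse as nearly independent (consensus correlation 0.0781) and called 4590 of 20218 probes. Its p-value therefore does not replace that of the test over 10 mice.

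Mael encodes Maelstrom, a germ granule protein needed for transposon silencing and for piRNA processing. It ranged from -0.07 in mouse 5905 to 0.52 in mouse 6163, with a median of 0.29. The mean was 0.26 ± 0.19 (n = 10), a 1.20-fold ratio with an adjusted p of 0.0221, and 9 of 10 mice were above 0. Mouse 5997, at 0.00, and mouse 5905 were the low values. The array that gave mouse 6163 its low Piwil2 value read 1.34 for Mael. Without it this mouse was at 0.35 for Mael, below mouse 6493 at 0.44, and at 0.10 for Piwil2, no longer the lowest.

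The dye orientations did not give the same picture for every member. Tdrd1 averaged 0.36 on the Cy5 arrays and 0.21 on the Cy3 arrays, and over the 10 mice these means correlated at r = 0.737, beside a median of 0.0453 over all probes (5.10% of which reached 0.7). Tdrd5 probe 11991 averaged 0.47 and 0.50. Mael averaged 0.51 ± 0.29 on the Cy5 arrays, with 10 of 10 mice above 0, and 0.01 ± 0.22 on the Cy3 arrays, with 7 of 10, and the Cy5 mean was the higher in 10 of 10 mice. The Mael gap of 0.49 between orientations was larger than that of 91.6% of all probes. Tdrd5 probe 10574 had a gap of similar size in the other direction, at -0.37 and 0.04. Piwil1 was above 0 on the Cy5 arrays (0.13 and 0.11 for its probes) and below it on the Cy3 arrays (-0.02 and -0.10). With the Cy3 arrays alone 0 of 8 member probes were called, beside 1352 of 20327 probes in all. Tdrd1 then had an adjusted p of 0.145, Tdrd5 probe 11991 of 0.0668 and Mael of 0.919. With the Cy5 arrays alone, Tdrd5 probe 11991 had an adjusted p of 0.0532, and Tdrd5 probe 10574 was called lower (-0.37, adjusted p = 0.0142).

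**Figure D2:**
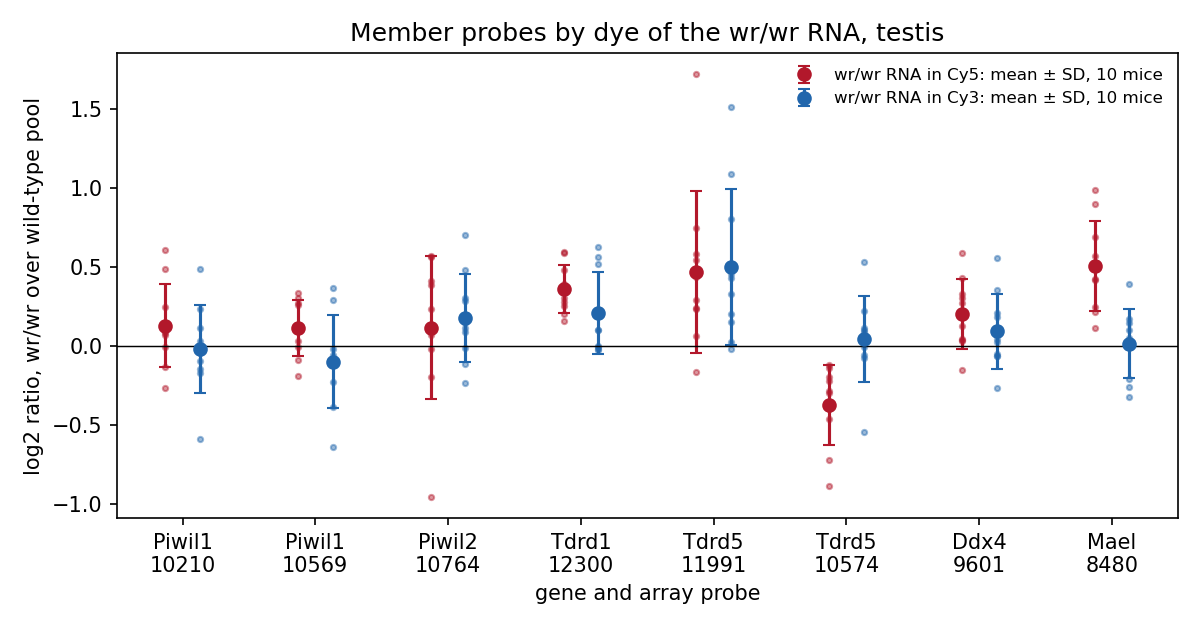
Log2 ratios (y axis) of each member probe (x axis) with the wr/wr RNA in Cy5 (red) or in Cy3 (blue), with small points for the 10 mice and large points with bars for their mean ± SD. Tdrd1 and Tdrd5 probe 11991 are above 0 in both orientations, while the mean of Mael is 0.51 in Cy5 and 0.01 in Cy3.

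The same mice tended to read high across the members. Mouse 6493 was among the 3 highest for 7 of the 8 probes, mouse 6069 for 6 and mouse 5995 for 5. Mice 5906 and 5997 were among the 3 lowest for 5 probes. These ranks were not taken over all probes, so they are not shown to be particular to the members. Both Piwil1 probes, which correlated at r = 0.917 over the mice, count among the 8. The median over the 8 member probes was 0.41 in mouse 5995, 0.38 in mouse 6493 and 0.30 in mouse 6069. It was 0.00 in mouse 5997, -0.01 in mouse 6163 and -0.03 in mouse 5906. The Spearman rho between the dye orientations over all probes lay between 0.171 and 0.366 in the 5 mice with the highest member medians and between -0.311 and 0.0934 in the other 5. Among the lower 5 it did not follow the member order: mice 6065 and 5905, at -0.311 and -0.223, had member medians of 0.08 and 0.02, above those of mice 5997, 6163 and 5906, at -0.113, 0.0627 and 0.0934. The part of this agreement in the member values was not tested.

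Germ cell marker lists did not follow the members in each of the mice that were high. In mouse 5995 the median over 9 spermatocyte markers was -0.03, over 12 round spermatid markers -0.14 and over 16 elongating spermatid markers -0.53, while the member median was 0.41. In mouse 6069 the same medians were 0.25, 0.17 and 0.02. In mouse 6493 they were 0.10, -0.01 and -0.01. Mouse 5907, with a member median of 0.24, had the highest spermatocyte median (0.30) and the highest round spermatid median (0.27). Over the 10 mice together, 2 of 12 spermatocyte probes were called higher and 1 lower, 1 of 15 round spermatid probes lower, 1 of 23 elongating spermatid probes higher and 0 of 14 spermatogonial probes in either direction. Among somatic markers, 8 of 16 Sertoli cell probes were called higher, and 5 of 13 Leydig cell probes, 5 of 11 macrophage probes and 1 of 10 endothelial probes lower. Of 8 red blood cell probes, 4 were called higher, all of 1 gene, and the median of that list was 0.32. This median is over probes, most of them of that gene, while the medians by mouse average the probes of a gene first. The probes of the list's other genes were at 0.06 and -0.18. None of 5 peritubular probes passed. The lists' part in the member ratios was not tested.

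**Figure D3:**
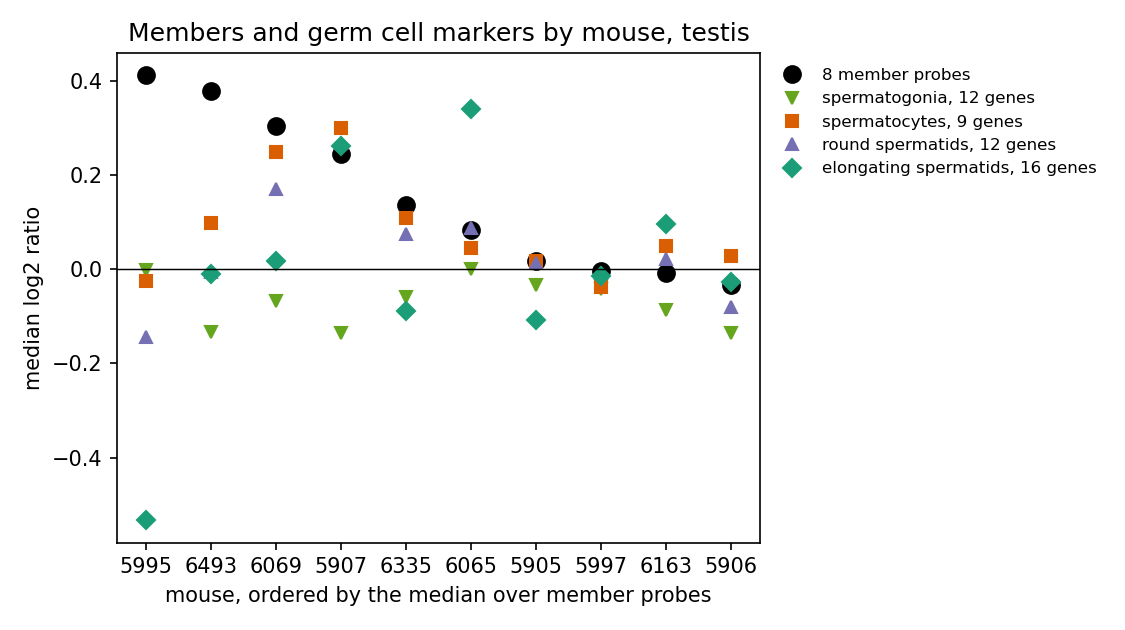
Median log2 ratio (y axis) over the 8 member probes (black) and over 4 lists of germ cell markers (colours) in each wr/wr testis (x axis, mice ordered by the member median). The member median runs from 0.41 in mouse 5995 to -0.03 in mouse 5906, and the elongating spermatid median of mouse 5995 is -0.53.

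Over the 10 mice, 15 pairs of members were compared with 1 probe per gene, and 12 had a correlation above 0 (median r = 0.456, from -0.21 to 0.871). Against 19394 probes, the median r of a member lay between -0.0254 for Ddx4 and 0.00405 for Piwil1. The 3 pairs below 0 all involved Tdrd5, here represented by probe 10574. The values of a pair share their arrays. With 1 gene read on the Cy5 arrays and the other on the Cy3 arrays, 7 of the 15 pairs had r above 0 both ways round, and the median of these cross-dye values was 0.193, from -0.45 to 0.755. Only Tdrd1 and Piwil2 passed after adjustment over the 15 pairs: r = 0.871 (adjusted p = 0.0051) and rho = 0.915 (adjusted p = 0.00765), from 100000 permutations. Of the 19394 probes, 1.37% reached r = 0.8 with Tdrd1 and 1.09% with Piwil2, so such an r is not particular to the pair. Both genes were high in mice 5995, 6069 and 6493. Without mice 6069 and 5995, the farthest from the median of Tdrd1, r was 0.701. Tdrd1 on the Cy5 arrays against Piwil2 on the Cy3 arrays, which share no array, gave r = 0.513, and the reverse gave 0.676. In mice 5905, 5997 and 6065 alone the number is too small for a correlation. Piwil2 and Ddx4 followed at r = 0.731 and Tdrd1 and Piwil1 at 0.702, with permutation p-values of 0.114 and 0.115 after adjustment. The last fell to 0.366 without the same 2 mice.

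**Figure D4:**
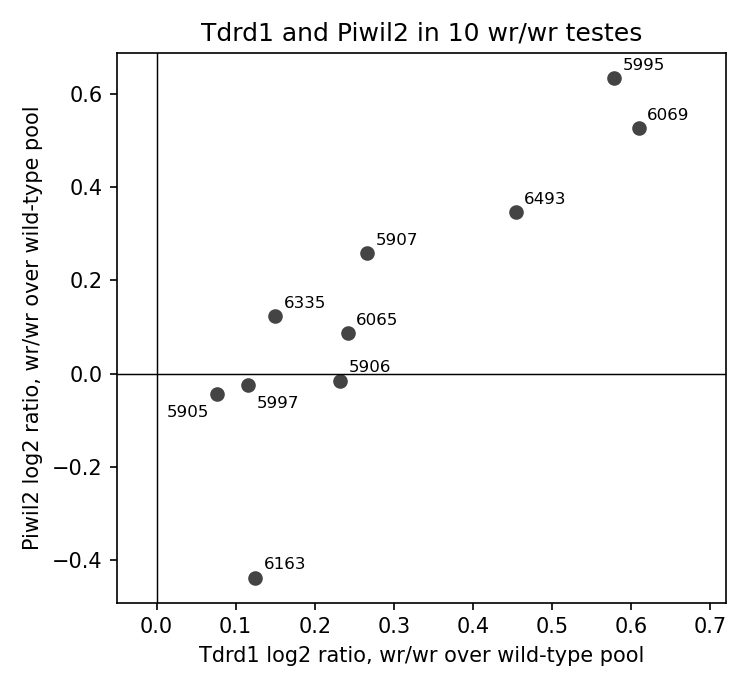
Log2 ratio of Piwil2 (y axis) against that of Tdrd1 (x axis) in each wr/wr testis, with 1 labelled point per mouse. Mice 5995, 6069 and 6493 are high for both genes, and mouse 6163 has the lowest Piwil2 value, at -0.44.

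Outside the set, the named genes most like each member over the 10 mice were found among 19394 probes, as a description. They were Dcaf11 and Copb2 for Tdrd1 (r = 0.973 and 0.972), Pgp and Ddx17 for Piwil2 (0.941 and 0.940), and Ing2 and Ice1 for Piwil1 (0.972 and 0.955). For Ddx4 they were Tmem222 and Parl (0.964 and 0.959), for Mael Rcc1 and Hspa9 (0.953 and 0.903), and for Tdrd5 probe 10574 Ccl25 and Oxct1 (0.934 and 0.898). The share of all probes that reached r = 0.8 ran from 0.150% for Tdrd5 to 1.59% for Ddx4.

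Of 75 other genes of the pathway and of germ granules, 39 had a named probe, 64 probes in all. In the testis fit, 5 of these genes had a probe called higher and 2 a probe called lower, 7 of 64 probes, beside 12.3% of all probes. Their median was 0.01. This count fell to 1 gene without mouse 6493 and to 2 without mouse 6069, to 3 without mouse 6335, and to 4 without mouse 5906 or mouse 5907. Over all probes the calls fell with it, from 2494 to 752, 998, 1233, 1539 and 1241 in the same order.

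The Argonaute genes went both ways. Ago4, which in mice is known for a role in meiotic silencing of the sex chromosomes, ranged from -0.15 to 0.56 on probe 4091 and rose by 0.27 ± 0.24 (n = 10, adjusted p = 0.038), but its other probe was at -0.06. Ago2, the slicer of the microRNA pathway, ranged from -0.73 to -0.01, lay below 0 in all 10 mice and fell by 0.25 ± 0.22 (n = 10, adjusted p = 0.036). Among helicases, Ddx6, a protein of processing bodies that is also found in the chromatoid body, ranged from -1.53 to -0.17 on probe 20020 and fell by 0.49 ± 0.39 (adjusted p = 0.0243). Its other probes were at -0.27 and -0.15 and did not pass. Mov10l1, the helicase that feeds piRNA precursors into processing, was at -0.52 ± 2.03 with values in 8 mice, a spread too wide for a direction.

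Among processing factors and PIWI cofactors, the chaperone gene Hsp90aa1 rose by 0.21 ± 0.14 on probe 8066 (10 of 10 mice above 0, adjusted p = 0.0207), with its other probe at 0.00. Parn, a deadenylase that trims RNA 3′ ends, rose by 0.16 ± 0.11 on probe 9194 (adjusted p = 0.023), with its other probes at -0.16 and 0.06. Spin1, a chromatin reader, ranged from 0.07 to 0.65 and rose by 0.31 ± 0.21 (n = 10, 10 of 10 mice above 0, adjusted p = 0.018). Dicer1, which cuts microRNA precursors, rose by 0.19 ± 0.17 on probe 13168 (adjusted p = 0.0454), with other probes at 0.03 and -0.15. Of these 7 genes, 5 had further probes, none of which passed. No gene of the arginine methylation list (5 probes) and none of the germ granule RNA-binding list (19 probes) passed. Nor did any of the 8 probes of the other Tudor domain genes.

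**Figure D5:**
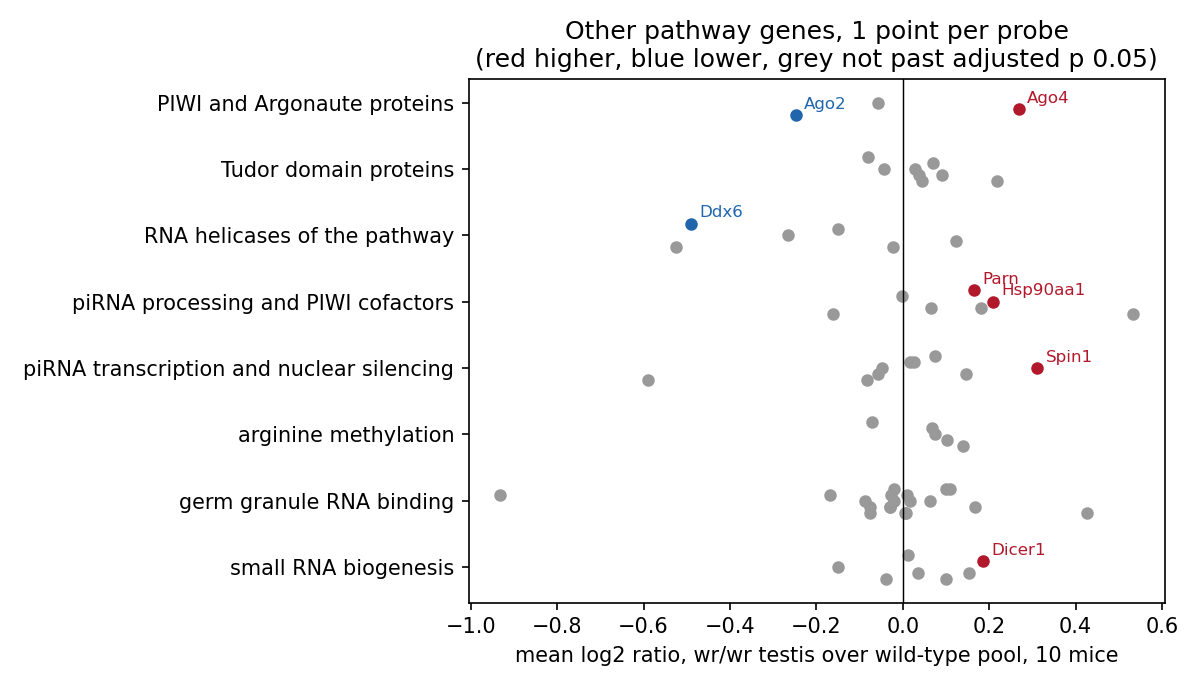
Mean log2 ratio of wr/wr testis over the wild-type pool (x axis) for each probe of the other pathway genes, in rows by list, with probes called higher in red, called lower in blue and others in grey. Ago4, Parn, Hsp90aa1, Spin1 and Dicer1 have a probe called higher, and Ago2 and Ddx6 a probe called lower.

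In the spinal cord, a tissue without germ cells, 4 of the 8 member probes had both dye orientations in all 3 RNAs, and 0 passed. Over all 17055 probes 0% were called by limma (smallest adjusted p 0.542, with 1476 probes at an unadjusted p under 0.05), so the cord test calls nothing at n = 3. The 3 RNAs count equally here, although pool1 and pool2 hold 4 mice each and mouse 5995 was read on 2 arrays. Each SD below is therefore not a spread among mice. Tdrd1 read -0.04 in pool1, 0.42 in pool2 and -0.39 in mouse 5995, a mean of 0.00 ± 0.41 (adjusted p = 0.997). Piwil1 probe 10569 read 0.15, -0.11 and 0.55 (0.20 ± 0.33, adjusted p = 0.642). Both genes thus lay on both sides of 0. Piwil2 read 0.10, 0.00 and 0.24 (0.12 ± 0.12, adjusted p = 0.675), and Mael 0.24, 0.06 and 0.18 (0.16 ± 0.09, adjusted p = 0.592). Both were above 0 in all 3 RNAs, Piwil2 by only 0.004 in pool2, with no call. Single arrays read above 0 on 7 of 10 for Piwil2 and on 5 of 9 for Mael.

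The remaining 4 probes lacked an orientation in mouse 5995. They include the 2 member values over 10 in size: 16.52 for Piwil1 probe 10210 on 1 array of pool1, whose other arrays read -0.48, 1.56 and 3.15, and -15.68 for Tdrd5 probe 10574 in mouse 5995. The spread over single arrays of these 2 probes was 5.40 and 5.63 in cord, against 0.31 and 0.49 in testis. For Piwil2 and Mael it was 0.36 and 0.40 in cord and 0.45 and 0.38 in testis. For Tdrd1 and Piwil1 probe 10569 it was 0.50 and 0.92 in cord and 0.26 and 0.28 in testis.

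The difference between tissues was tested over the 13 RNAs with 1 pooled spread, although the median SD of a probe was 0.17 in testis and 0.26 in cord. Of 17005 probes, 21.2% were called. None of the 4 member probes was: Tdrd1 differed by 0.29 (SE 0.16, adjusted p = 0.203), Piwil1 probe 10569 by -0.19 (SE 0.14, adjusted p = 0.356), Piwil2 by 0.03 (SE 0.18, adjusted p = 0.924) and Mael by 0.10 (SE 0.12, adjusted p = 0.556), testis minus cord. The higher ratio of Tdrd1 and Mael in testis is therefore not shown to differ from that in cord. The files hold no levels, so whether these probes read above background in cord could not be checked. The Tdrd1 value depends on pool2, the cord RNA in which it read high: without pool2 the difference was 0.50 (adjusted p = 0.0394), and without mouse 5995 it was 0.09. Without mouse 5995 all 8 probes could be tested, and 1 was called, Piwil1 probe 10210 at -3.00 (adjusted p = 0.0182), which includes the array at 16.52.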

How the data were processed

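The authors deposited log2 ratios, 1 for each probe on each array. Per the labels' protocols, 20 µg of total RNA were labelled indirectly with Cy3 or Cy5, with dyes swapped on an equal number of arrays. How they corrected background and normalized is not given in the sources used here. No scanner intensities were used. Arrays were centred on their median, arrays of 1 dye averaged per RNA, and the Cy5 and Cy3 means averaged. For each probe, limma's moderated test (lmFit and eBayes, version 3.58.1, R 4.3.3) compared the ratios with 0, and p-values were adjusted by Benjamini and Hochberg over all probes with both orientations in at least 8 testis RNAs or all 3 cord RNAs, at a threshold of 0.05. The script was tested on simulated data. Since 1 pool stands for the wild type, the spread among wild-type mice is left out. With the Cy3 arrays turned in sign, 949 probes were called in testis, beside 2494 as deposited, and the deposited signs were kept.

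The 10 mice are separate animals. The cord RNAs came from mice whose testes were measured, which pairs them, although deviations from the tissue means, cord against testes of those mice, correlated near 0 (r = -0.00867, 0.00547 and 0.00842). Members and lists were chosen with earlier results of these data known. Named genes are all member probes, other pathway genes with a probe past the threshold, and the 2 named genes most like each member. Mov10l1 is named besides, although it did not pass (limma adjusted p = 0.610). The probe of a gene used over mice was that with values on most arrays, then that with the lowest adjusted p. The number of arrays limits the precision. Leaving out each RNA, single dyes, other centring, scaling and filters, the averaging of probes and a model over arrays were tried.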

Additional observations from a re-analysis of the deposited data

How the results depend on the processing

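The count of member probes called in testis, 3, was 0 with the Cy3 arrays alone and lay between 1 and 4 when each mouse was left out. The fourth call, without mouse 5905, was Tdrd5 probe 10574, lower at -0.21 and so against the other Tdrd5 probe. That probe was also called lower with the Cy5 arrays alone and with the Cy3 arrays turned (adjusted p = 0.0466). The count stayed at 2 to 4 under the other settings. The count of other pathway genes, 7, was 15 with the Cy5 arrays alone, 15 in the model over arrays, and between 1 and 8 when each mouse was left out. Over all probes the count of 2494 of 20218 became 3406 of 20315 with the Cy5 arrays alone and 1352 of 20327 with the Cy3 arrays alone. It became 4590 of 20218 in the model over arrays, and its lowest value was 752, without mouse 6493. With the probes of a gene averaged, 2 of the 3 member genes were called. Tdrd1 kept its direction under all settings run and its call under all but the Cy3 arrays alone and the Cy3 arrays turned in sign (adjusted p = 0.175). Without mouse 6493 its call was narrow, at an adjusted p of 0.04955.

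Under some settings directions turned, among them that of the largest member mean, Tdrd5 probe 11991. With the Cy3 arrays alone, Tdrd5 probe 10574 was at 0.0425, and Piwil1 was at -0.0192 on probe 10210 and -0.10 on probe 10569. Leaving out single mice, Piwil1 probe 10569 ran from -0.0292 to 0.0342. With the Cy3 arrays turned, Tdrd5 probe 11991 was at -0.0149 and Piwil2 at -0.0301. In cord, the Cy5 arrays alone gave 0.12 for Tdrd1, -0.11 for Piwil1 probe 10569 and -0.054 for Piwil2, and leaving out single RNAs moved Tdrd1 from -0.22 to 0.19. For testis minus cord, 1 member probe was called with the Cy3 arrays alone (Piwil1 probe 10569 at -0.61), and 0 to 1 when each cord RNA was left out. The Cy5 arrays alone gave 0.22 for Piwil1 probe 10569, and the Cy3 arrays alone -0.11 for Piwil2 and -0.19 for Mael. Piwil2 ran from -0.028 to 0.0923 when each cord RNA was left out. With a replicate block, in which a cord RNA was set against its mice's testes, 0 of 4 member probes were called (Tdrd1 0.36, adjusted p = 0.540). The causes were not tested. The settings without the array lowest for Piwil2 and without that highest for Tdrd5 were chosen after seeing the data and changed no call of a member probe.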
